A study of Mus musculus with 2 samples.

Results

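The 6 genes described here, Gem, Rrad, Rhob, Rnd1, Rnd3 and Rasd1, encode small GTPases known in other settings as products of rapidly induced messages. They were picked by symbol out of 15113 genes listed in 1 or both of 2 RNA-seq libraries of mouse lung epithelial cells. They were selected on these same libraries, with the RPKM values of both in view, so their levels and ratios are a description and carry no test. Whether any of them was induced in these cells was not measured. All 6 were listed in both libraries and all 6 reached 1 RPKM in 1 library or both, the filter for entering a comparison (RPKM is reads per kilobase of gene and 1000000 reads of library).

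Both libraries came from C57BL/6 mice of 6 to 8 weeks. Cells of the dissociated lung that lacked the leukocyte surface protein CD45 and were positive for Sftpc (surfactant protein C, the product of alveolar type 2 cells) were collected by flow sorting. The tumour-bearing library is from mice given 1000000 luciferase-labelled LLC cells, a mouse lung carcinoma line, under the skin of the back and labelled as a spontaneous lung metastasis model. The series title places the cells in the niche before metastasis. The control library is from wild type mice without a tumour. Each group is 1 library, and how many animals went into it is not stated, so differences between the groups have no replicates behind them and no p-value can be given.

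Small GTPases are switches that are active with GTP bound and inactive with GDP bound. Most Ras proteins are cycled by exchange factors and GTPase-activating proteins and reach membranes through a lipid added to a C-terminal cysteine. The RGK proteins (Rem, Rem2, Rad and Gem) and the Rnd proteins differ from the cycling part of that scheme. The Rnd proteins hydrolyse GTP hardly at all, and members of both groups are thought to be set largely by how much protein is made. In the alveolar epithelium RhoA and its relatives govern the actomyosin that holds cell junctions and cell shape.

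Depth corresponded to 5335352 reads in the control and 5387114 reads in the tumour-bearing library, as worked out from the deposited values. Sftpc was the top gene of both libraries, at 94903 and 54968 RPKM. Of the 10 alveolar type 2 markers, Sftpc among them, 4 were above 0 and 6 below on the log2 ratio. The median of the 10 was -0.25, and 1 was past 2-fold each way. Epcam, an epithelial surface protein, was at 100 and 122 RPKM, and Ptprc, which encodes CD45, had 12 and 2 reads. Scgb1a1, the main secretory product of club cells, came second in both, at 30142 and 35116 RPKM. It made up most of the sum of the 8 club cell markers, 39110 and 42520 RPKM. Of the 8, 4 were above 0 and 4 below on the log2 ratio, 1 past 2-fold each way, with a median of -0.01. All 10 alveolar type 1 markers were above 0 on the log2 ratio, 6 of them past 2-fold, with summed levels of 1779 and 2871 RPKM. Of all 12288 genes that passed the filter, 6612 were above 0 and 9.38% were higher by 2-fold or more. Markers of stromal cells differed between the libraries too. Of the 14 endothelial markers, 11 were higher by 2-fold or more in tumour-bearing mice and none was at 0 in either library. Their summed levels were 106 and 223 RPKM, of which Esam alone made up 68.1 and 71.8 RPKM. Of the 12 fibroblast markers, 10 were higher by that much, and Lum and Tcf21 were at 0 in the control library. The 12 summed to 165 and 890 RPKM, of which Col6a1 alone made up 121 and 379 RPKM. The 8 smooth muscle and pericyte markers summed to 3.47 and 8.97 RPKM. Acta2, Myh11, Cnn1, Cspg4 and Rgs5 were at 0 in the control library. In the tumour-bearing library these markers were below the filter too, the highest being Myh11 at 0.448 RPKM. Summed levels of the macrophage and monocyte list were 39.8 and 107 RPKM, and of the neutrophil list 4.86 and 3.45 RPKM. The leukocyte list summed to 88.3 and 54.2 RPKM, of which Lcp1 alone made up 82.7 and 50.3 RPKM, each other marker lying below 3 RPKM. The part of these marker differences in the values below was not tested.

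The 6 genes divided into those with lower and those with higher levels in tumour-bearing mice. Gem, Rrad, Rnd3 and Rnd1 were lower, and Rhob and Rasd1 were higher. Summed over the 6, the level was 416 RPKM in control cells and 287 RPKM in cells of tumour-bearing mice. Without Rhob it was 244 and 61.8 RPKM, of which Gem alone made up 202 and 27.9 RPKM. On the log2(RPKM + 1) scale, 3 of the 6 (Gem, Rnd3 and Rrad) were lower by 2-fold or more, beside 6.53% of the 12288 genes that passed the filter. None of the 6 (0) was higher by 2-fold, beside 9.38%. Because the members were chosen with these values known, nothing is read from those counts. By a stricter rule, that the whole counting interval of the read ratio lay past 2-fold, Gem and Rnd3 qualified as lower, beside 3.72% of 12259 genes with a read number, and 0 members as higher, beside 6.26%. In a sample of sorted cells, fewer cells of a type and less RNA per cell cannot be told apart. Intervals given with a fold are exact 95% intervals of the ratio of reads and cover counting error only.

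**Figure D1:**
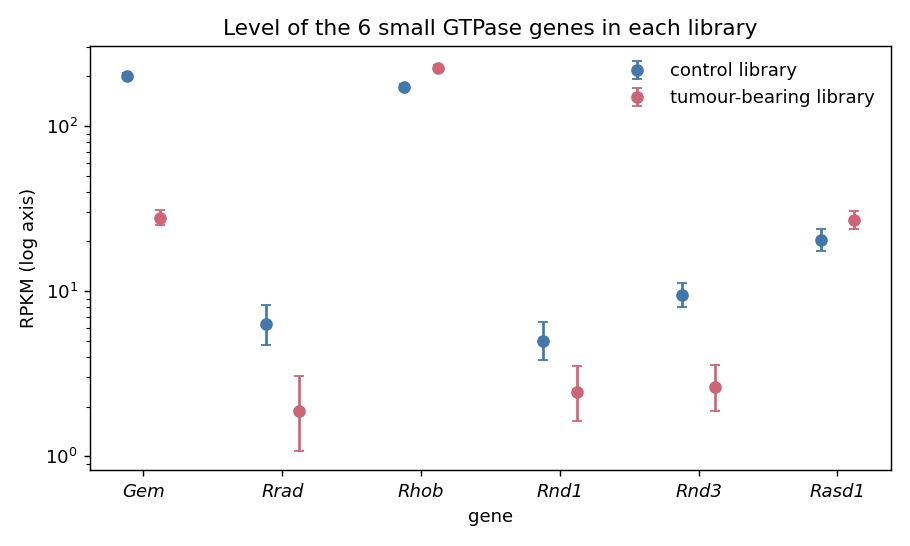
Level of each of the 6 genes in control cells (blue) and in cells of tumour-bearing mice (red), in RPKM on a log axis, with exact 95% Poisson intervals of the read number as bars (counting error only, 1 library per group). Gem stands at 202 RPKM in blue and 27.9 RPKM in red, and Rhob and Rasd1 are the 2 genes whose red point lies above the blue one.

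Gem (GeneID 14579, chromosome 4, 11704447 to 11714993 on GRCm38, plus strand) encodes an RGK protein that binds the beta subunits of voltage-gated calcium channels and reshapes the cytoskeleton. It was at 202 RPKM in control cells, from 2437 reads, and at 27.9 RPKM in cells of tumour-bearing mice, from 339 reads. The level was thus 7.26-fold lower (6.48 to 8.16) with the tumour. Gem held rank 258 among genes of the control library and rank 2429 in the other, and its log2 ratio of -2.82 was the 13th lowest of 12288. In the control library Gem was the most abundant of the 6 genes, at 48.6% of their summed RPKM, and in the tumour-bearing library its share was 9.71%.

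Rrad (GeneID 56437, chromosome 8, 104628070 to 104631350, minus strand), first described as a gene raised in diabetic muscle, encodes the RGK protein Rad, which also restrains calcium channels. Its level was 6.3 RPKM without and 1.88 RPKM with the tumour, from 53 and 16 reads, which is 3.35-fold lower (1.88 to 6.27). The interval reaches below 2-fold, so at this depth the size of the difference is loosely set. The annotated antisense gene Gm33023 overlaps Rrad, and since the strand setting of the counting is not given, reads of both cannot be told apart. The other 2 RGK genes, which are not members, differed from each other. Rem2 was at 8.64 and 1.38 RPKM, from 87 and 14 reads, 6.28-fold lower (3.55 to 11.9). Rem1 was below the filter, with 0 reads in control cells and 5 reads in the other library. Gem, Rem2 and Rrad, the 3 RGK genes that passed the filter, were thus all lower by 2-fold or more on the log2(RPKM + 1) scale. The interval of Rem2 overlapped those of Gem and Rrad, while the intervals of Gem and Rrad did not overlap. Summed RGK level was 217 and 31.7 RPKM, of which Gem made up 93.1% and 87.9% and Rrad 2.9% and 5.94%.

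Rnd3 and Rnd1 had low levels in both libraries and lower ones in tumour-bearing mice. Rnd3 (GeneID 74194, chromosome 2, 51130439 to 51149111, minus strand) encodes RhoE, which binds and blocks the kinase ROCK1 and recruits p190RhoGAP against RhoA. Rnd3 was at 9.48 RPKM in control cells and 2.63 RPKM in the other library, from 143 and 40 reads, 3.61-fold lower (2.53 to 5.26). Rnd1 (GeneID 223881, chromosome 15, 98669205 to 98677461, minus strand) encodes a relative that binds plexins and also opposes RhoA. It was at 5.02 and 2.44 RPKM, from 59 and 29 reads, 2.05-fold lower (1.3 to 3.32). Rnd1 was outside the 2-fold rule on the log2(RPKM + 1) scale, with a log2 ratio of -0.81, since adding 1 shrinks ratios of genes at a few RPKM. The remaining Rnd gene, Rnd2, was lower as well, at 5.75 and 1.63 RPKM, 3.53-fold (1.38 to 10.7) from only 21 and 6 reads.

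Rhob went the other way from both Rnd members. Rhob (GeneID 11852, chromosome 12, 8497661 to 8500009, minus strand, a gene of 1 exon) encodes an endosomal small GTPase that is short-lived and is raised by growth factors and DNA damage. Rhob was at 173 RPKM in control cells and 225 RPKM in cells of tumour-bearing mice, from 2089 and 2746 reads, 1.3-fold higher (1.23 to 1.38). Rhoa, the central activator of actomyosin contraction, was at 191 and 244 RPKM, 1.27-fold higher (1.2 to 1.35), and its interval overlapped that of Rhob.

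RefSeq promoter entries were matched for 2 of the 6 genes, Rhob and Rnd3. The 250 bases before the start of each are shown because these genes stood on opposite sides of 0, so their contents can be compared. Gem, Rrad, Rnd1 and Rasd1 had no matched entry. They are from RefSeq (GRCm38.p6), Rhob at chr12:8500010-8500259 and Rnd3 at chr2:51149112-51149361, both minus strand, 5′ to 3′ in the direction of the gene. Capitals mark matches to any of 8 motifs searched on both strands.
Rhob: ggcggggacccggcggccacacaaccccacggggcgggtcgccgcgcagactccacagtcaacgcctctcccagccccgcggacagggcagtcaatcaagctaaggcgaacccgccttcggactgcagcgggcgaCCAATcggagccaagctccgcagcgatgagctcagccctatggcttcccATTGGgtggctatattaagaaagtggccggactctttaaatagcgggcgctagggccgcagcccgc
Rnd3: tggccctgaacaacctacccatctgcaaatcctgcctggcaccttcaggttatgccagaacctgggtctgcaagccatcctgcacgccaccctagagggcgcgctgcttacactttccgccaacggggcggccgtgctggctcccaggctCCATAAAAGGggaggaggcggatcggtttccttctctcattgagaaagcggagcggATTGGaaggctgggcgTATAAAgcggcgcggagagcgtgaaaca
The motifs were the cyclic AMP element (TGACGTCA), its half-site (TGACG, which lies within the full element), AP-1 (TGANTCA), the TATA box (TATAAA), the CCAAT box (CCAAT), the glucocorticoid receptor half-site (TGTTCT), and, by name, the CArG box of serum response factor and the NF-kB element. Rhob held 2 CCAAT boxes, at 115 to 111 and, on the opposite strand, at 66 to 62 bases before the start. Rnd3 held 1 CCAAT box on the opposite strand at 44 to 40, a TATA box at 28 to 23 and a CArG box at 100 to 91 bases before the start. The CCAAT box was present in 33.8%, the TATA box in 12.4% and the CArG box in 1.47% of 32851 RefSeq promoter entries cut to the same 250 bases. Neither window held the other 5 motifs, which occurred in 1.55% (cyclic AMP element), 17.8% (its half-site), 6.75% (AP-1), 16.1% (glucocorticoid receptor half-site) and 3.9% (NF-kB) of entries. Over whole entries, which run 50 bases past the start, the CCAAT, TATA and CArG shares were 37.4%, 13.6% and 1.63%. Both windows were rich in G and C, at 66% for Rhob and 60% for Rnd3, beside a median of 52.4% over all entries. A match is a description of letters, not of binding.

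Rasd1 (GeneID 19416, chromosome 11, 59963181 to 59964944, minus strand) encodes Dexras1, a Ras relative first cloned as a dexamethasone-induced message that couples to Gi proteins and neuronal nitric oxide synthase. Rasd1 was at 20.4 RPKM in control cells and 27 RPKM in cells of tumour-bearing mice, from 175 and 234 reads, 1.32-fold higher (1.08 to 1.62). Its closest relative Rasd2 (Rhes) was at 27.3 and 33.4 RPKM, 1.22-fold higher (1.07 to 1.4), so the 2 intervals overlapped. The log2 ratios of Rhob and Rasd1, 0.38 and 0.39, stood above those of 71.1% and 71.7% of tested genes, inside the bulk of the distribution.

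The order of the 6 levels differed between the libraries. In the control library it was Gem, Rhob, Rasd1, Rnd3, Rrad and Rnd1. The counting intervals of Rnd3 and Rrad overlapped, and so did those of Rrad and Rnd1. In the tumour-bearing library the order was Rhob, Gem, Rasd1, Rnd3, Rnd1 and Rrad. There the intervals of Gem and Rasd1 overlapped, as did those of Rnd3 with Rnd1 and of Rnd1 with Rrad. The Gem level was 9.93 times that of Rasd1 in the control library and 1.03 times in the tumour-bearing library, whereas Rhob stood 8.48 and 8.34 times above Rasd1.

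**Figure D2:**
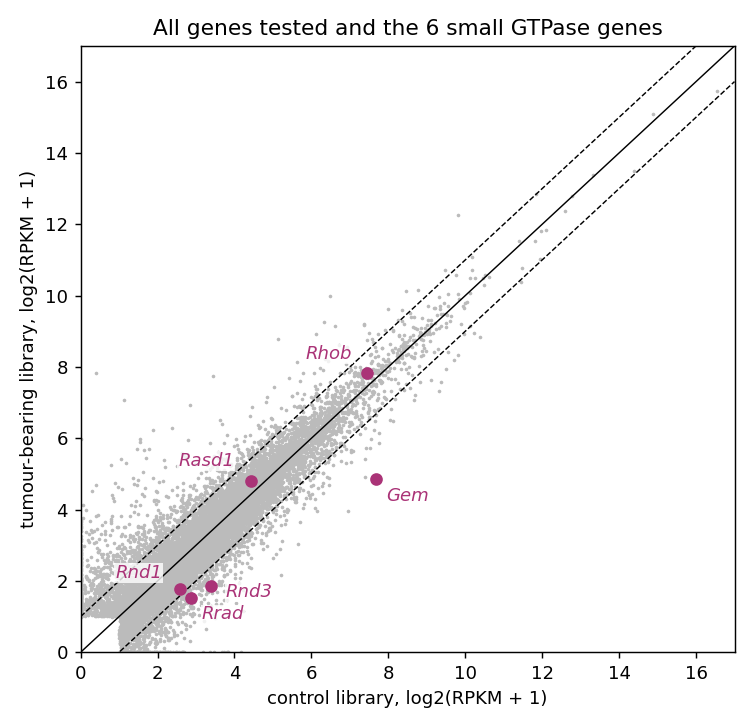
Level of 12288 genes in the control library (x axis) against the tumour-bearing library (y axis), both as log2(RPKM + 1), with the 6 genes in purple, the line of equal levels (solid) and 2-fold lines (dashed). Gem lies farthest of the 6 below the lower 2-fold line, Rnd3 and Rrad just past the lower 2-fold line, and Rnd1, Rhob and Rasd1 inside both lines.

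Among 27 tested Ras family genes, 18 were above 0 and 9 below, and the median log2 ratio was 0.27. Over all 12288 tested genes, 6612 were above 0 and 5676 below, and the median was 0.06. Of the 27, 4 (Rasl10b, Rasl12, Rap2c and Rhebl1) were higher by 2-fold or more, beside 9.38% of all tested genes. Lower by as much was 1 (Rasl10a), beside 6.53%. Few reads stood behind Rhebl1 (4 in control cells and 15 in the other library) and Rasl10a (17 and 1). Hras and Nras, both classical Ras genes, were 1.33-fold (1.15 to 1.55) and 1.71-fold (1.45 to 2.02) higher, and the interval of each overlapped that of Rasd1. Among those farther from 0 were Rasl12, at 2.24 and 42.9 RPKM, 19.2-fold higher (13.2 to 28.9), and Rasl10b, with 2 and 280 reads. Rerg, a growth-inhibiting Ras relative, was 1.95-fold lower (1.69 to 2.25).

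Of 10 tested genes for proteins that bind or act with RGK proteins, 8 were above 0, beside 6612 of all 12288 tested genes. The median of the 10 was 0.39. The 2 past 2-fold, both higher (beside 9.38% of all tested genes), were Gmip and Cacna1s, neither above 3 RPKM. The channel subunit genes Cacnb3 and Cacnb1 were at 3.44 and 5.82 RPKM and at 3.29 and 5.3 RPKM. Ezr, encoding the membrane-cytoskeleton linker ezrin that Gem binds, was at 262 and 397 RPKM, 1.51-fold higher (1.45 to 1.57). Calm2, one of the calmodulin genes, was at 355 and 414 RPKM.

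Rock1, the kinase that RhoE blocks, was at 25.3 and 29.3 RPKM, and Arhgap35, encoding p190RhoGAP, at 21.3 and 22.4 RPKM (both named after their values were seen). The 9 genes that make, attach or process the prenyl lipid were all within 2-fold, with a median of 0.29. Of all 12288 tested genes, 10333 were within 2-fold on the log2(RPKM + 1) scale, and the median was 0.06. Fdps, an enzyme of lipid supply, was 1.69-fold lower (1.53 to 1.88). Rce1, the protease that trims the prenylated end, was 1.74-fold higher (1.23 to 2.48), and Fnta, a subunit shared by both prenyltransferases for CAAX proteins, 1.29-fold higher (1.07 to 1.55). The 8 tested partners of Rasd1 were within 2-fold on the log2(RPKM + 1) scale. Gnai1, Gnai2 and Gnai3 (the inhibitory G protein subunits) were at log2 ratios of 0.41, 0.17 and 0.32. By the direct ratio of RPKM, Adcy9, another of the 8, was 2.06-fold lower (1.468 to 2.915), from 108 and 53 reads. Nos1, the partner synthase, was listed in neither library.

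The 6 genes were next set beside 2 lists of responsive genes. Of all 12288 tested genes, 5676 lay below 0 and 6612 above, with 6.53% lower and 9.38% higher by 2-fold or more. Of 23 tested immediate early genes, all 23 lay below 0 on the log2(RPKM + 1) scale, 12 of them past 2-fold, and the median was -1.31. Gem, at -2.82, lay near Egr2, the lowest of them on this scale, at -2.64. Their order turns with the direct ratio of RPKM, by which Egr2 was 9.48-fold lower (6.31 to 14.8) and Gem 7.26-fold. The values of Rnd3 (-1.53) and Rrad (-1.34) lay near that median, and Rnd1 (-0.81) above it. Rhob and Rasd1, at 0.38 and 0.39, lay outside the range of the list, which ended at -0.29 with Dusp1 (named after its value was seen). Of 18 glucocorticoid-induced genes, a list that holds Rasd1 and Rhob themselves, 14 were above 0, with 9 past 2-fold, and the median was 0.98. Nfkbia, an NF-kB inhibitor gene, was the 1 gene lower by 2-fold or more. Without the 2 members the median was 1.13 over 16 genes. Fkbp5 and Zbtb16, a chaperone and a transcription factor gene with strong steroid responses, were 51-fold (30.8 to 91.6) and 10.7-fold (8.37 to 13.7) higher. Rhob and Rasd1 stood on the same side of 0 as 12 of these 16 genes, at a smaller ratio than the median of the 16. That side held 6612 of all 12288 tested genes. Whether stimulation in the animal, the sort or handling set any of these values was not tested.

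**Figure D3:**
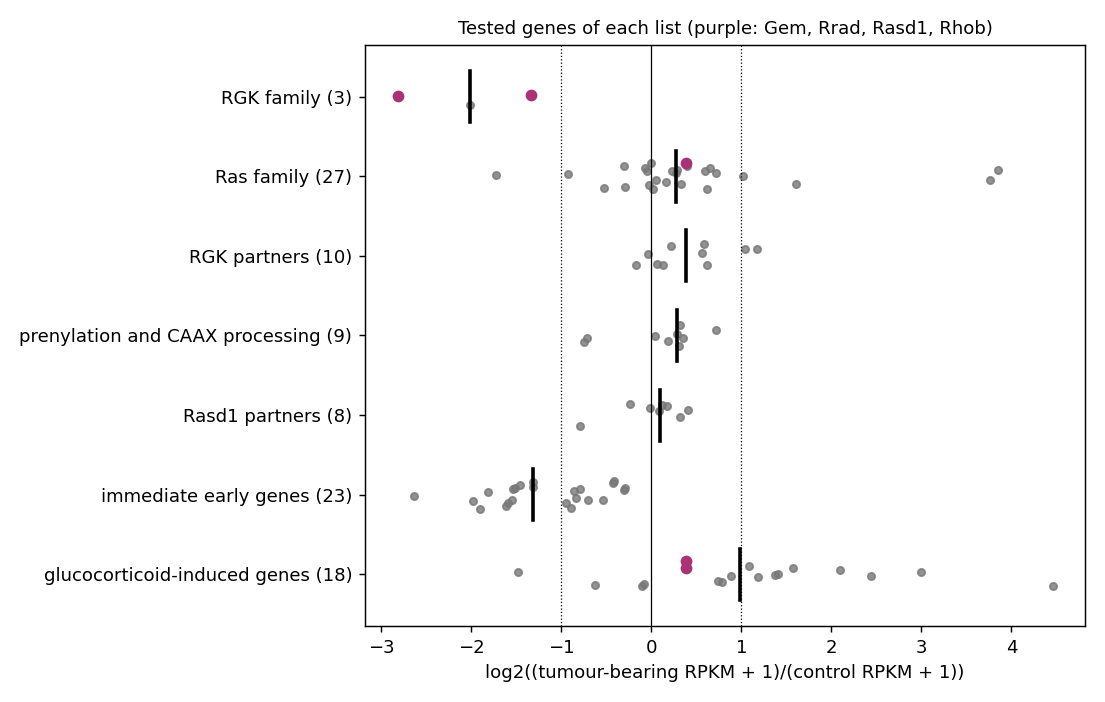
Log2((tumour-bearing RPKM + 1)/(control RPKM + 1)) of each tested gene, 1 row per list with the number of tested genes in brackets; black bars are medians, dotted lines 2-fold, and purple points Gem, Rrad, Rasd1 and Rhob in the lists that hold them. The immediate early genes all lie left of 0 (median -1.31), and the prenylation genes and the Rasd1 partners all lie within the 2-fold lines. Rhob and Rasd1 lie right of 0 among the glucocorticoid-induced genes. Of all 12288 tested genes (not drawn), 5676 were below 0, 6612 above and 10333 within 2-fold.

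By the distance between log2(RPKM + 1) values in the 2 libraries, the tested genes nearest to Gem were Acoxl, at 166 and 29 RPKM (distance 0.292), and Bex2, at 168 and 41.4 RPKM (0.614). No other gene lay closer to Gem than 0.292, whereas each of the other 5 had neighbours within 0.0673. Among these were, for Rrad, Ppp1r1a, for Rhob Irx1 and Rps27a, for Rnd1 Mycbpap and Lrrc56, for Rnd3 Ciita and Slc7a4, and for Rasd1 Las1l and Zswim8. Likeness over 2 libraries rests on 2 values per gene.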

How the data were processed

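RNA of sorted lung epithelial cells was sequenced in 2 libraries (control and tumour-bearing, 1 each). The authors deposited 1 table per library with gene-level RPKM, per the file headers. Trimmomatic and mm10 are named in the submitters' processing notes, without versions. No source used here gives the aligner, counting tool, annotation or strand setting. RPKM scales to the library total, so abundant genes such as Sftpc lower the others. Values were used as deposited, a gene missing from a table counting as 0. Symbols and positions came from RefSeq (GRCm38.p6, the assembly of mm10), by GeneID for 15080 of 15113 genes.

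Read numbers were worked out from the RPKM. The last 250 rows of each table gave whole gene lengths (within 0.02 base) for 1 read each at totals of 5335352 and 5387114. The other genes were given the smallest read numbers with a whole length common to both libraries that kept the rows in descending order of reads. This settled 15076 of 15113 genes. The first 20 rows of each table were left unsettled, and the order was broken in 14 of 28139 neighbouring pairs. Totals and reads are therefore inferred; the procedure was tested on simulated data. PCR reads without molecular identifiers are not independent molecules.

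Ratios were taken after adding 1 to each RPKM, tumour-bearing over control, as log2, among genes reaching 1 RPKM in either library, with a 2-fold size rule. Folds in the text are direct RPKM ratios, with 95% intervals of the read ratio by the conditional binomial (exact, Clopper-Pearson). Named genes were the 6, the RGK and Ras families, and the 2 nearest genes to each member. Of each other list, up to 4 genes were named, taken by size of log2 ratio among genes reaching 5 RPKM. Epcam, Scgb1a1, Lcp1, Esam, Col6a1, Rock1, Arhgap35, Adcy9, Dusp1, Gmip, Cacna1s and Nfkbia were named after their values were seen. Some genes and lists that this rule covers are not reported here. Members and lists were chosen with earlier results of these data known. Alternatives were pseudocounts of 0.1 and 5, trimmed-mean, upper-quartile, median and Sftpc-free scaling, recovered reads with 0.5 added, no filter or 5 RPKM, and rules of 1.5-fold, 4-fold and interval past 2-fold. Python 3.11.15, scipy 1.17.1 and pandas 2.3.3 were used.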

Additional observations from a re-analysis of the deposited data

How the results depend on the processing

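In every alternative run, Gem, Rrad, Rnd1 and Rnd3 stayed below 0 and Rhob and Rasd1 above 0. Upper-quartile scaling used a factor of 0.11 on the log2 scale, and the Rhob log2 ratio was then 0.27. With a pseudocount of 5 the Rnd3 log2 ratio was -0.93 and 1 member (Gem) was at least 2-fold lower, as by the 4-fold rule, where it was also 1. Rnd1 passed 2-fold, making 4 members lower, with a pseudocount of 0.1 (-1.01) and on recovered reads (-1.03). The numbers of genes past the rule, 802 lower and 1153 higher, depended on the treatment of low values. They were 190 and 370 with a pseudocount of 5, and 419 and 687 with a filter at 5 RPKM. With a pseudocount of 0.1 there were 1247 lower and 1539 higher, and on recovered reads 1281 and 1566. By the 1.5-fold rule there were 1978 lower and 2383 higher, by the 4-fold rule 75 and 204, and with the interval wholly past 2-fold 456 and 767. Fewer genes entered under the 5 RPKM filter, and otherwise the cause was not tested. Rrad, Rnd1 and Rnd3, with 16 to 40 reads in the tumour-bearing library, are the members whose ratios depth limits most.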
